A study of Mus musculus with 6 samples.

Results

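A set of 10 genes of the semaphorin, plexin and neuropilin family was followed in mouse macrophages given the serotonin receptor agonist BW723C86 or its vehicle. The set comprised the semaphorins Sema4a, Sema4b, Sema4d and Sema6d, the plexins Plxna1, Plxnb2, Plxnc1 and Plxnd1, and the neuropilins Nrp1 and Nrp2. They were matched by symbol among the 28822 gene identifiers of the deposited table, and were selected with their measured values in the comparison of agonist with vehicle already known. Their differences between the groups are therefore given as a description, with no p-value, and where edgeR's threshold (adjusted p under 0.05 over all genes tested) is named for them it describes the values and supports nothing. By nomenclature the family was listed as 31 genes, of which 30 were in the table, and Sema5b was not analysed here. In the vehicle libraries 10 family genes reached 10 CPM (this stands for counts set in proportion to the TMM-scaled library total, as edgeR does it), and 9 of these belonged to the set, the other being Sema6b.

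The libraries were bulk poly(A) RNA-seq of cells taken from the upper chamber of a Transwell, an insert with a porous floor, 3 libraries per group. Below them in every well of both groups were HT22 cells, a mouse hippocampal neuronal line, after 2 h of oxygen-glucose deprivation (OGD), which stands in for ischaemia in culture. One group received BW723C86, an agonist of the serotonin receptor 5-HT2B, and the other DMSO alone, and the comparison asked what the agonist does to the transcripts of the upper cells. The series' title names bone marrow-derived macrophages (BMDMs), its design text allows BV2 microglia or BMDMs, and the sample labels name BMDM with HT22. Mouse strain, dose and duration of treatment, and whether replicates were grown as separate cultures, were not given in the sources used here, so the p-values given reflect the spread among these 6 libraries and nothing wider, and that spread may be technical.

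Semaphorins are secreted or membrane-bound guidance proteins, first known for steering axons and later for regulating contacts between immune cells. Most act through plexins, receptors whose cytoplasmic part switches off small GTPases of the R-Ras and Rap type and so loosens integrin adhesion. Neuropilins have short cytoplasmic tails and serve as co-receptors, with plexins for the secreted class 3 semaphorins and with VEGF receptors for vascular endothelial growth factors. In macrophages and dendritic cells, membrane-bound semaphorins and plexins take part in T cell stimulation, migration and phagocytosis.

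Total counts ran from 58841307 to 75931615 per library, with 19034 to 20002 genes detected, and each of the 10 genes had between 190 and 54843 counts in every library. BW723C86 replicate 2 stood apart in the chi-square of counts between pairs of libraries, which was, divided by its degrees of freedom, 35.5 with replicate 1 and 24.4 with replicate 3. The pair of replicates 1 and 3 gave 11.1, and pairs of DMSO libraries gave 9.83 to 10.4. Among the 3 BW723C86 libraries it was the lowest for Sema4a, Sema4b, Plxna1, Plxnb2 and Plxnd1 and the highest for Sema4d, Sema6d, Plxnc1, Nrp1 and Nrp2. Leaving it out moved none of the 10 log2 fold changes by more than 0.069. All 12 macrophage markers were present, led by Lyz2 and Itgam, with a summed level of 37650 to 38510 CPM in DMSO and 33700 to 34780 CPM in BW723C86 libraries. Lyz2 carried most of that sum (32880 CPM in DMSO and 29410 CPM in BW723C86 libraries). The markers went different ways, 7 higher, 4 lower and 1 not past edgeR's threshold, beside 21.3% higher and 20.7% lower over all genes tested. Itgam was at 2088 CPM in DMSO and 975 CPM in BW723C86 libraries. Of the 7 neuronal markers in the table none was high enough to test, Map2, Nefl and Dcx had no count, and the summed level stayed at or below 0.401 CPM.

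Promoter sequence was taken from RefSeq (GRCm38.p6), as windows of 250 bases before to 50 bases after an annotated start, and 9 of the 10 genes matched with 17 windows. The part before the start is shown for the first Sema6d window, chr2:124089719-124089968, and for the Nrp1 window, chr8:128358823-128359072, both on the plus strand, because these genes had the largest fold changes of the set. Capitals mark the E-box CACGTG, a sequence bound by basic helix-loop-helix factors, and the GC box GGGCGG, read as CCGCCC on the other strand, bound by Sp family factors.
Sema6d: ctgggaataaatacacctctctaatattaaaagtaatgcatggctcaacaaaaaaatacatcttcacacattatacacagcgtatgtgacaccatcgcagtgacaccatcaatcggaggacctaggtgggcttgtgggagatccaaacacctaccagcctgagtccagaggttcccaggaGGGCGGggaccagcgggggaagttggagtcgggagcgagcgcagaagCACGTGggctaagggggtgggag
Nrp1: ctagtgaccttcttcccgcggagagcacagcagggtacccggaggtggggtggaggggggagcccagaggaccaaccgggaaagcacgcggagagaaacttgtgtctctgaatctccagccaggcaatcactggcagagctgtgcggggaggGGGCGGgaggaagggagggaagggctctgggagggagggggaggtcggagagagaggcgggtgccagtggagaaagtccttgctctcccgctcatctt

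In the Sema6d window the E-box began 23 bases and a GC box 70 bases before the start, and a second GC box began at base 7 after the start, in the part not shown. A second Sema6d start, whose window was chr2:124653331-124653630, held neither motif. The single GC box of the Nrp1 window began 98 bases before the start. Searched on both strands, the GC box was present in 13 of the 17 windows, whereas 35.7% of all 32851 RefSeq windows held it. Each of the 9 matched genes had it in at least 1 window, a count per gene for which no share over all genes was computed. The windows of the set were also richer in G and C, with a median of 61.7% against 52.7% and a median of 14 against 7 CpG dinucleotides per window. The E-box occurred in 2 windows, of Sema4b and Sema6d (7.15% of all windows), and the CCAAT box (CCAAT) in 3 windows, of Sema4a and Sema4d (37.4%). The core of PU.1 sites, GAGGAA, occurred in 7 windows of Sema4a, Sema4b, Plxnc1, Plxnd1 and Nrp1 (28.3%). Letters of the TATA box (TATAAA), the AP-1 site (TGACTCA) and the cAMP response element (TGACGTCA) were in none of the 17 windows, against 13.6%, 5.2% and 1.79% of all windows.

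Among the semaphorins the values separated the genes by size of difference: Sema6d was 8.83-fold higher with BW723C86, Sema4d and Sema4b were slightly higher, and the groups overlapped for Sema4a. A change in the number of cells that express a gene and a change in its RNA per cell cannot be told apart in such bulk samples. Sema6d (ENSMUSG00000027200, chromosome 2) encodes a membrane-bound class 6 semaphorin that binds Plxna1. Its level was 3.08, 3.15 and 3.32 CPM in DMSO replicates 1 to 3 and 28.5, 28.6 and 27.2 CPM in BW723C86 replicates 1 to 3. Every BW723C86 library lay far above every DMSO library, and the 3 libraries of each group lay close together. The mean was 3.18 ± 0.123 against 28.1 ± 0.785 CPM (SD, n = 3 per group), a fitted log2 fold change of 3.14 (SE 0.086, 8.83-fold), or 3.11 without BW723C86 replicate 2.

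Sema4d (ENSMUSG00000021451, chromosome 13), also called CD100, is a membrane-bound semaphorin that is cut from the surface by proteases and binds class B plexins and the lymphocyte receptor CD72. DMSO libraries held 95.0, 101.6 and 96.7 CPM of its transcript and BW723C86 libraries 115, 116 and 116 CPM. The groups did not overlap, and the highest DMSO library lay nearer to the other group than the rest. The fitted log2 fold change was 0.25 (SE 0.045, 1.19-fold), and 0.23 without BW723C86 replicate 2. Sema4b (ENSMUSG00000030539, chromosome 7), another membrane-bound class 4 semaphorin, measured 81.8, 81.8 and 80.1 CPM in DMSO and 91.2, 86.0 and 90.5 CPM in BW723C86 libraries. These ranges did not overlap either, but the gap between them was smaller than that for Sema4d, and the log2 fold change was 0.14 (SE 0.046, 1.10-fold). Sema4b was past the threshold in 8 of the 16 alternative settings tried.

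Sema4a (ENSMUSG00000028064, chromosome 3) is a membrane-bound semaphorin of dendritic cells and macrophages that stimulates T cells and binds Plxnd1 and class B plexins. It was at 347, 352 and 349 CPM in DMSO libraries and at 357, 319.9 and 342 CPM in BW723C86 libraries. The groups overlapped, with BW723C86 libraries both above and below all DMSO libraries. The log2 fold change was -0.04 (SE 0.048), and -0.02 without BW723C86 replicate 2, the lowest library. Its receptor on T cells, Timd2, had no count in any library.

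**Figure D1:**
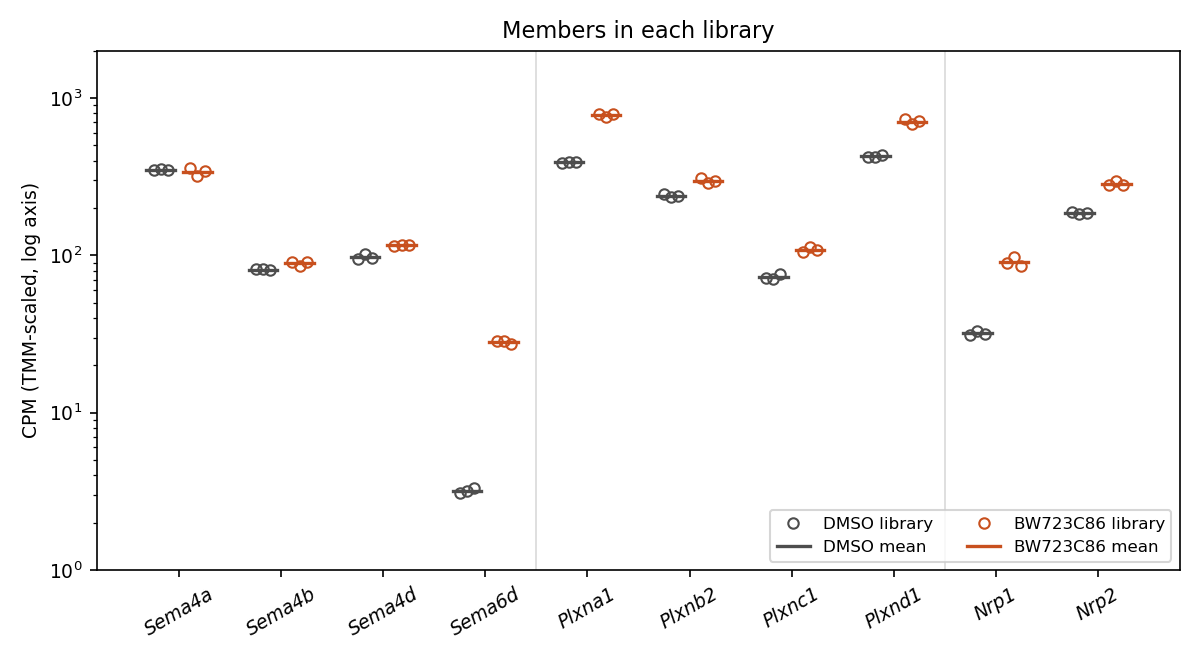
Level of the 10 genes in each library, in TMM-scaled CPM on a log axis, with open circles for libraries (3 per group, DMSO grey, BW723C86 orange) and a line for each group mean. Sema6d moves from a mean of 3.18 to 28.1 CPM, while the circles of the 2 groups overlap only for Sema4a. Over all genes tested, the groups did not overlap for 52.3%.

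All 4 plexins of the set were higher with BW723C86, Plxna1 by 2.01-fold, Plxnd1 by 1.67-fold, Plxnc1 by 1.49-fold and Plxnb2 by 1.25-fold, and in none did the groups overlap. Over all genes tested, 21.3% were past the threshold and higher, and the groups did not overlap for 52.3%. Plxna1 (ENSMUSG00000030084, chromosome 6) is the receptor of Sema6d and, with neuropilins, of class 3 semaphorins, and in myeloid cells it pairs with the Trem2 and Tyrobp receptor complex. DMSO libraries contained 388.9, 389.4 and 391 CPM of Plxna1 and BW723C86 libraries 796, 762 and 788 CPM. The DMSO libraries differed by less than 1% of their level (coefficient of variation 0.245%), the smallest relative spread of the set in that group, and the lowest BW723C86 library was replicate 2. Its log2 fold change was 1.00 (SE 0.042), or 1.01 without that library. An antisense gene that overlaps its exons, Gm26811, was at 0.284 CPM in DMSO and 1.21 CPM in BW723C86 libraries, and whether counting used strand was not given in the sources used here.

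Plxnd1 (ENSMUSG00000030123, chromosome 6), the receptor of Sema3e and also of Sema4a, measured 419, 425 and 432 CPM in DMSO and 732, 682 and 711 CPM in BW723C86 libraries. The ranges were well apart, and the log2 fold change was 0.73 (SE 0.044), or 0.75 without BW723C86 replicate 2. Plxnc1 (ENSMUSG00000074785, chromosome 10), the receptor of the lipid-anchored Sema7a, was at 71.8, 71.1 and 76.4 CPM in DMSO and 105, 113 and 108 CPM in BW723C86 libraries. Here replicate 2 was the highest BW723C86 library, and the log2 fold change of 0.57 (SE 0.050) became 0.52 without it. Plxnb2 (ENSMUSG00000036606, chromosome 15), a receptor of class 4 semaphorins, measured 245, 233 and 238 CPM in DMSO and 309, 289.7 and 298 CPM in BW723C86 libraries. It had the smallest fold change of the plexins in the set, with a log2 value of 0.33 (SE 0.044), also 0.33 without BW723C86 replicate 2.

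Both neuropilins were higher with BW723C86, Nrp1 by more than Nrp2, where 21.3% of all genes tested were past the threshold and higher. Nrp1 (ENSMUSG00000025810, chromosome 8), co-receptor of Sema3a and of VEGF-A, was at 31.2, 33.0 and 31.6 CPM in DMSO and 89.9, 97.8 and 86.1 CPM in BW723C86 libraries. The groups lay far apart, although Nrp1 had the widest relative spread of the set in BW723C86 libraries (coefficient of variation 6.53%), with replicate 2 highest. Its log2 fold change was 1.51 (SE 0.060, 2.86-fold), and 1.45 without that library. Nrp2 (ENSMUSG00000025969, chromosome 1), co-receptor of Sema3f and of VEGF-C, measured 189, 184 and 186 CPM in DMSO and 279.9, 298 and 279 CPM in BW723C86 libraries. Its groups did not overlap, and the log2 fold change was 0.61 (SE 0.045, 1.53-fold), or 0.57 without BW723C86 replicate 2.

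In all, 9 of the 10 genes were past edgeR's threshold, all of them higher, and the same 9 had CPM ranges that did not overlap. Over the 15567 genes tested, 42.0% were past the threshold, 21.3% higher and 20.7% lower, and the ranges did not overlap for 52.3%. Nothing is read from this difference in shares, since the 10 genes were selected on the same contrast. The median log2 fold change was 0.59 over the 10 genes and 0.004 over all genes tested. Spread within groups was small throughout, with coefficients of variation of 0.245% to 3.96% in DMSO and 0.611% to 6.53% in BW723C86 libraries, and it was wider with BW723C86 for 7 of the 10 genes. The share of all genes with wider spread in BW723C86 libraries was not computed. BW723C86 replicate 2 stood apart over the genes at large, so nothing particular to the set is read from that count.

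Levels of different genes were compared per length, as TPM computed here from the counts and the length of all annotated exons of each gene, overlapping parts counted once. The order therefore depends on these lengths, which need not be those of the transcripts made in these cells. In CPM, which is not divided by length, Plxnd1 (425) and Plxna1 (390) already lay above Sema4a (349) in DMSO libraries. In DMSO libraries Sema4a was the most abundant gene of the family at 167 ± 1.34 TPM (SD, n = 3), ahead of Plxnd1 at 150.3 ± 3.14 and Plxna1 at 111 ± 0.879 TPM. Plxnb2, Nrp2, Sema4b, Sema4d and Plxnc1 followed in this order, from 79.8 down to 22.6 TPM, and Nrp1 came 10th at 8.42 ± 0.232 TPM, just below Sema6b. Sema6d was 14th at 0.777 ± 0.0342 TPM, and its range overlapped that of Sema4f, the next gene down. No other neighbours in the order that included a gene of the set overlapped.

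With BW723C86 the head of the order changed, because Plxnd1 (250.5 ± 3.87 TPM) and Plxna1 (223 ± 2.56 TPM) lay above Sema4a (162 ± 5.48 TPM). The next 5 places were held by Plxnb2, Nrp2, Sema4b, Sema4d and Plxnc1, as in DMSO. Nrp1 passed Sema6b to reach the 9th place at 24.1 ± 1.93 TPM. Sema6d reached the 11th place at 6.88 ± 0.229 TPM, still well below the class 4 semaphorins of the set.

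**Figure D2:**
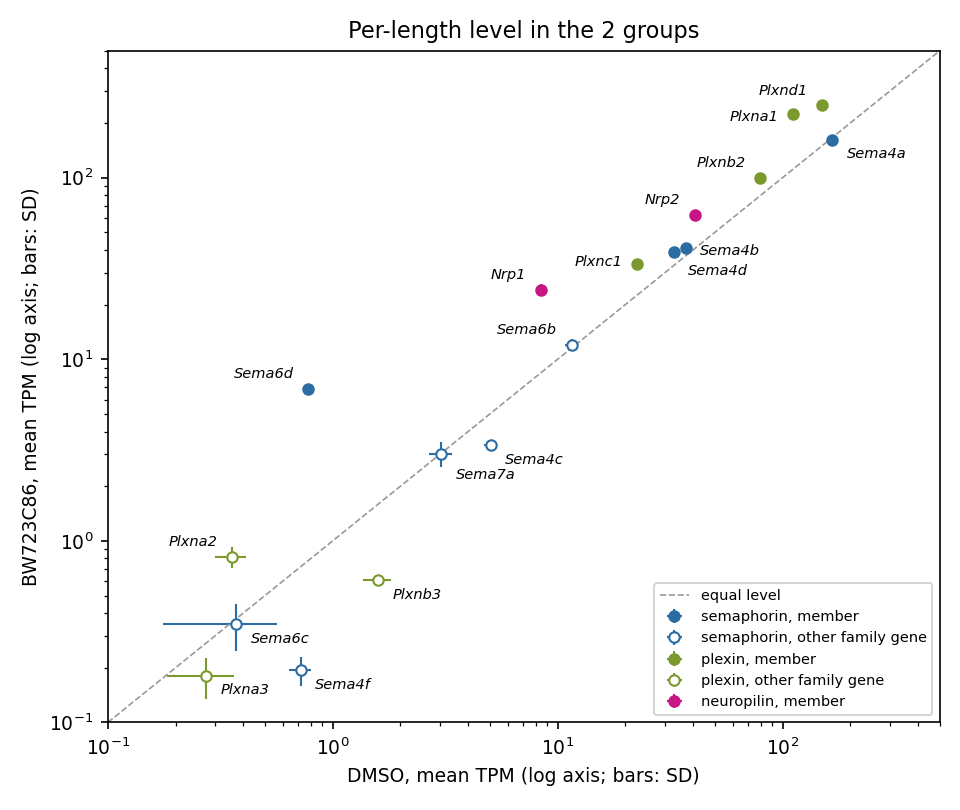
Mean per-length level (TPM, log axes) of family genes in DMSO (horizontal) and BW723C86 (vertical) libraries, n = 3 each, with SD bars, filled for the 10 genes of the set and open for other family genes; the dashed line is equality. Sema6d lies farthest above the line, at 0.777 against 6.88 TPM, and Sema4a lies on it.

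Summed over each class, the per-length level was higher with BW723C86 for plexins and for neuropilins and differed little for semaphorins. All semaphorin genes together amounted to 258 ± 1.68 TPM in DMSO and 268 ± 5.01 TPM in BW723C86 libraries (SD, n = 3). Plexin genes summed to 366 ± 5.07 TPM in DMSO and 609 ± 5.03 TPM in BW723C86 libraries, and the neuropilins to 49.0 ± 0.374 and 86.5 ± 5.46 TPM. Sema4a made up 64.5% ± 0.419 of the semaphorin sum in DMSO and 60.5% ± 0.925 in BW723C86 libraries. Sema6d accounted for 0.301% ± 0.0135 of that sum in DMSO and 2.57% ± 0.134 with BW723C86. Within the plexins, the share of Plxna1 was 30.3% ± 0.200 in DMSO and 36.6% ± 0.202 with BW723C86, that of Plxnb2 was 21.8% ± 0.529 and 16.4% ± 0.134, and Plxnd1 stayed near 41.1% in both. The ratio of Nrp2 to Nrp1 was 4.83 ± 0.202 in DMSO and 2.59 ± 0.0805 in BW723C86 libraries.

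Beyond the set, 10 further family genes were tested and of these 1 rose, 5 fell and 4 were not past the threshold, beside 21.3% higher and 20.7% lower over all genes. The set had been selected on values of this contrast, so that its difference from the other family genes was not tested. Plxna2, another receptor of class 6 and class 3 semaphorins, rose from 2.37 ± 0.357 to 5.42 ± 0.576 CPM (SD, n = 3; 1.19 on the log2 scale, SE 0.166, edgeR adjusted p = 7.4e-05). Plxnb3, a receptor of Sema5a, fell from 4.01 ± 0.591 to 1.52 ± 0.127 CPM (-1.40 on the log2 scale, SE 0.186, edgeR adjusted p = 5e-05). Plxnb1, the high-affinity receptor of Sema4d, fell from 55, 39 and 39 counts in DMSO libraries to 0, 4 and 0 counts in BW723C86 libraries (edgeR adjusted p = 0.00042). Of the class B plexins, Plxnb2 had the highest per-length level in both groups. Sema4c, a ligand of Plxnb2, fell from 8.97 ± 0.674 to 5.97 ± 0.224 CPM (-0.59 on the log2 scale, SE 0.110, edgeR adjusted p = 0.00082). A related gene, Sema4f, fell from 1.48 ± 0.153 to 0.398 ± 0.0806 CPM (-1.89 on the log2 scale, SE 0.299, edgeR adjusted p = 0.00021). Sema3c, a secreted semaphorin that signals through neuropilins, had 23, 15 and 16 counts in DMSO and none in BW723C86 libraries (edgeR adjusted p = 0.0014). Against a floor of 3 counts per library it was at least 5.18-fold lower, if each count stands for a fragment. That bound does not hold if a fragment is worth 4 counts. With counts divided by 4, the setting for a fragment worth 4 counts, Sema3c and Plxnb1 were too low to test.

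Sema6b, Sema7a, Sema6c and Plxna3 were not past the threshold. The Plxnc1 ligand Sema7a was at 3.87 ± 0.436 CPM in DMSO and 3.85 ± 0.615 CPM in BW723C86 libraries (edgeR adjusted p = 0.97). Sema6b, a ligand of class A plexins, was at 17.8 ± 1.28 and 18.5 ± 1.80 CPM (edgeR adjusted p = 0.65). A further 10 family genes had at most 13 counts in any library and were not tested, among them all class 3 semaphorins in the table except Sema3c. Over the whole family 20 genes were tested, of which 10 were higher, 5 lower and 5 not past the threshold (42.0% of all genes were past it), with a median log2 fold change of 0.10 beside 0.004 over all genes. This total includes the 10 selected genes, which gave 9 of the higher calls, so nothing is read from it. The 10 tested family genes outside the set had a median log2 fold change of -0.59. Of the 20 tested, the semaphorins gave 3 higher, 3 lower and 4 not past the threshold, and the plexins 5 higher, 2 lower and 1 not past it.

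**Figure D3:**
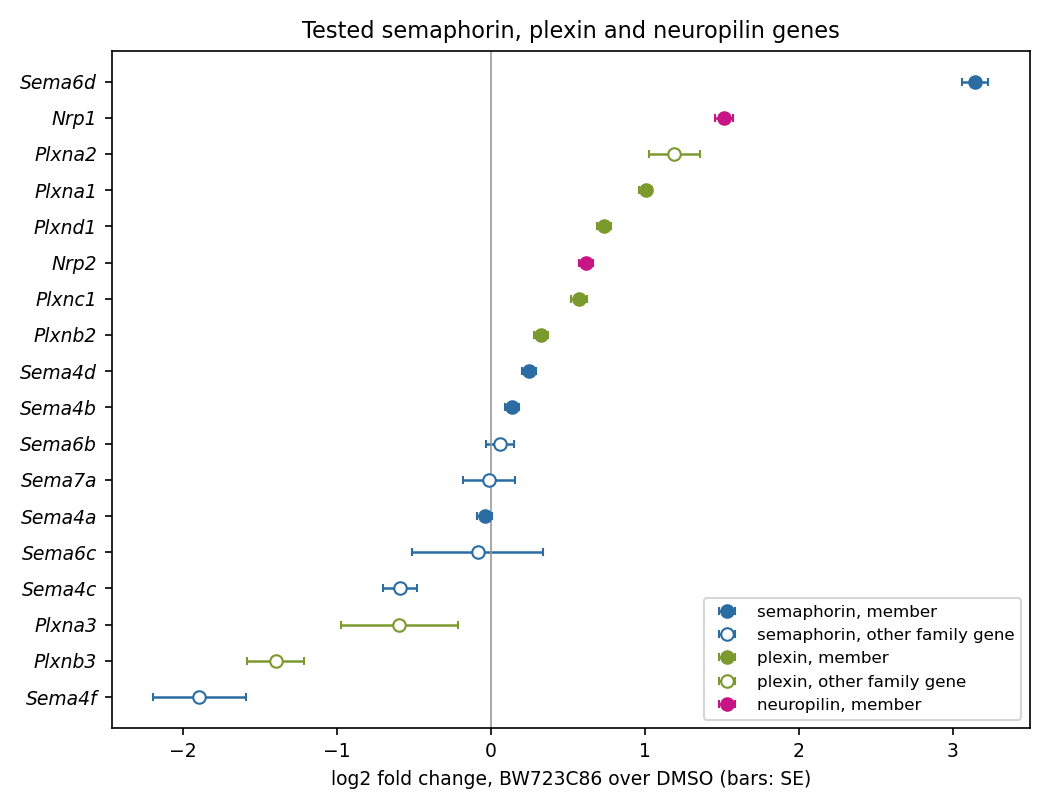
Fitted log2 fold change (BW723C86 over DMSO) with its SE for tested family genes, by class, filled for the 10 genes of the set and open for the others; Sema3c and Plxnb1 are left out because libraries at 0 counts make their fitted values depend on the prior count. Values run from 3.14 for Sema6d down to -1.89 for Sema4f.

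Of 17 receptors and partners that work beside plexins and neuropilins, 10 rose, 2 fell and 5 were not past the threshold, where 42.0% of all genes were past it, 21.3% higher and 20.7% lower. The median log2 fold change was 0.30 beside 0.004 over all genes, and the list, chosen with the results known, was not tested as a group. The Plxna1 partner Trem2, a lipid-sensing receptor, rose from 295 ± 13.5 to 461 ± 48.5 CPM (SD, n = 3; 0.64 on the log2 scale, SE 0.069, edgeR adjusted p = 7.5e-06). Its signalling adaptor Tyrobp rose from 564 ± 50.0 to 693 ± 72.4 CPM (0.30 on the log2 scale, SE 0.080, edgeR adjusted p = 0.011). BW723C86 replicate 2 was the lowest of its group for both, at 406 CPM of Trem2 and 615 CPM of Tyrobp. L1cam, an adhesion molecule that joins Nrp1 in Sema3a receptors, rose from 17.6 ± 0.885 to 56.5 ± 1.84 CPM (1.68 on the log2 scale, SE 0.062, edgeR adjusted p = 2.5e-10). Met, the hepatocyte growth factor receptor that associates with class B plexins, rose from 12.1 ± 0.245 to 38.5 ± 0.249 CPM (edgeR adjusted p = 3.2e-10), while its ligand gene Hgf fell from 21.8 ± 1.03 to 15.7 ± 0.884 CPM (edgeR adjusted p = 0.0003). The heparan sulphate proteoglycan Sdc3 rose from 111 ± 1.67 to 344 ± 17.6 CPM (1.63 on the log2 scale, SE 0.049, edgeR adjusted p = 3.2e-11).

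Of the VEGF family genes on the lists, the receptors Flt1, Kdr and Flt4 rose, the ligands Vegfa and Pgf fell and the ligand Vegfb rose. Flt1, the VEGF receptor that binds VEGF-A and placental growth factor, rose from 0.789 ± 0.0709 to 9.39 ± 0.683 CPM (3.57 on the log2 scale, SE 0.153, edgeR adjusted p = 9.2e-10). Kdr, the main signalling receptor of VEGF-A, rose from 68.3 ± 1.64 to 82.6 ± 3.22 CPM (0.27 on the log2 scale, SE 0.050, edgeR adjusted p = 0.00066). Vegfa itself fell from 46.9 ± 0.916 to 27.1 ± 2.31 CPM (-0.79 on the log2 scale, SE 0.068, edgeR adjusted p = 9.1e-07). Pgf, which encodes placental growth factor, fell from 69.7 ± 1.62 to 31.1 ± 1.61 CPM (-1.17 on the log2 scale, SE 0.057, edgeR adjusted p = 3.5e-09). Vegfb, a ligand of Flt1, went up from 23.8 ± 0.608 to 29.3 ± 1.09 CPM (0.30 on the log2 scale, SE 0.063, edgeR adjusted p = 0.0019). Flt4, the receptor of VEGF-C, was low, at 0.431 ± 0.223 CPM in DMSO and 1.10 ± 0.291 CPM in BW723C86 libraries (1.36 on the log2 scale, SE 0.420, edgeR adjusted p = 0.019). Pdgfb, a growth factor gene of the platelet-derived family, rose from 3.20 ± 0.190 to 8.12 ± 1.16 CPM (edgeR adjusted p = 6e-06). Of the 7 growth factor ligands of neuropilins tested, 2 rose, 3 fell and 2 were not past the threshold (over all genes 21.3% higher and 20.7% lower), with a median log2 fold change of 0.09.

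For Sema4d, the receptor Cd72 rose from 7.16 ± 0.651 to 11.3 ± 0.944 CPM (0.66 on the log2 scale, SE 0.110, edgeR adjusted p = 0.00034), whereas Plxnb1 fell to near 0 counts. For Sema7a, the plexin receptor Plxnc1 was higher, but the integrin chain Itga1, part of its other receptor, fell from 164 ± 4.64 to 65.2 ± 3.75 CPM (-1.33 on the log2 scale, SE 0.052, edgeR adjusted p = 4.1e-10). The partner chain Itgb1 was at 408 ± 7.24 and 383 ± 13.3 CPM and was not past the threshold (edgeR adjusted p = 0.11).

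**Figure D4:**
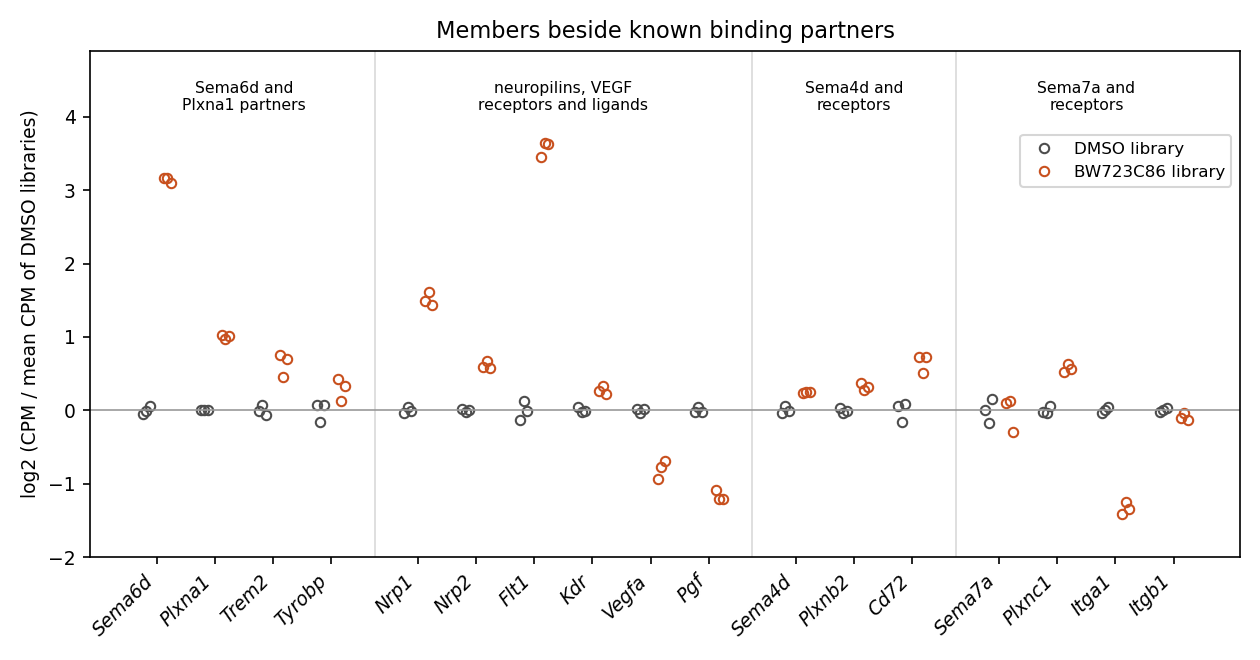
Genes of the set beside known binding partners, as the log2 ratio of each library's CPM to the mean CPM of DMSO libraries (3 DMSO libraries grey, 3 BW723C86 libraries orange). Flt1 lies near Sema6d at the top, with log2 fold changes of 3.57 and 3.14, and Vegfa, Pgf and Itga1 lie below 0.

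Downstream of plexins, 34 signal transducers were tested, of which 13 rose, 10 fell and 11 were not past the threshold, beside 42.0% of all genes past it. The median log2 fold change was 0.14 beside 0.004 over all genes. The 4 with the smallest p all rose. Mras, a small GTPase of the R-Ras group that plexins inactivate, rose from 10.3 ± 1.12 to 41.4 ± 2.30 CPM (edgeR adjusted p = 9.2e-10). Rras2, of the same group, was at 5.44 ± 0.628 CPM in DMSO and 20.3 ± 1.79 CPM in BW723C86 libraries (edgeR adjusted p = 1.7e-08). Rras, the founding gene of that group, fell from 63.7 ± 3.86 to 49.6 ± 3.02 CPM (-0.36 on the log2 scale, SE 0.063, edgeR adjusted p = 0.00048). Rap1a, another GTPase that plexins inactivate, fell from 118 ± 3.38 to 72.6 ± 7.22 CPM (-0.70 on the log2 scale, SE 0.064, edgeR adjusted p = 1.6e-06). Mical2, an enzyme that oxidises actin filaments, rose from 11.6 ± 1.35 to 46.4 ± 2.89 CPM (edgeR adjusted p = 1.2e-09). The tyrosine kinase Fyn, which acts with class A plexins, rose from 23.7 ± 1.18 to 59.7 ± 1.88 CPM (edgeR adjusted p = 1.4e-09). Among 5 proteases that process or shed semaphorins, 2 rose, 2 fell and 1 was not past the threshold, with a median log2 fold change of -0.10. Furin, which activates class 3 semaphorins by cleavage, rose from 431 ± 5.93 to 648 ± 35.2 CPM (edgeR adjusted p = 5.9e-07), and the related convertase gene Pcsk7 rose from 41.5 ± 1.31 to 55.0 ± 1.76 CPM (edgeR adjusted p = 5.3e-05). Mmp14, a membrane protease that can cut Sema4d, fell from 228 ± 2.19 to 205 ± 10.2 CPM (edgeR adjusted p = 0.02), and the sheddase gene Adam10 fell from 127 ± 3.67 to 114 ± 1.75 CPM (edgeR adjusted p = 0.0096).

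Over the 6 libraries, the genes whose pattern was most like that of Sema6d were Rbp4, Flt1 and Hr, out of 12241 genes with a mean of at least 1 CPM. Likeness was the root mean square difference of log2(CPM + 0.5) centred on the DMSO mean, which was 0.0860 for Rbp4, 0.0866 for Flt1 and 0.113 for Hr. The order depends on the added 0.5 CPM: without it, a setting chosen after seeing the data, the differences were 0.139 for Rbp4, 0.147 for Hr and 0.322 for Flt1, which then came 3rd, 5th and 16th. Rbp4, encoding the plasma carrier of retinol, went from 10.8 to 86.0 CPM, and Hr, encoding the hairless corepressor, from 5.07 to 40.2 CPM. Nearest to Sema4a, whose groups overlapped, were Pgam1 (0.0111), Zfp703 (0.0131) and the pseudogene Rps2-ps13 (0.0154), so that likeness is one of little difference between the groups. These likenesses rest on a single contrast and are a description.

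Marker lists of other cell types also differed between the groups, some lower and some higher with BW723C86. Over all genes tested, 21.3% were past the threshold and higher, and 20.7% were past it and lower. The summed level of 8 monocyte markers was 3857 to 3911 CPM in DMSO and 1244 to 1360 CPM in BW723C86 libraries, with 7 of 8 tested lower, led by Chil3 and Ly6c2. That of 12 neutrophil markers was 2603 to 2679 and 709 to 814 CPM, with all 9 tested lower, led by Mmp8 and Ngp. For 10 dendritic cell markers it was 602 to 612 and 2482 to 2624 CPM, with 6 of 8 tested higher, led by Itgax and Irf4. A single gene carried most of each of these sums. Chil3 alone was at 3203 CPM in DMSO and 1105 CPM in BW723C86 libraries, Mmp8 at 2417 and 716 CPM, and Itgax at 471 and 2361 CPM. Endothelial markers, led by Vwf and Kdr, summed to 163 to 165 and 249 to 255 CPM, with 3 of 4 tested higher and Tek at 0 in every library. Mast cell markers summed to 95.9 to 103 and 54.5 to 59.3 CPM, lymphocyte markers to at most 8.59 CPM and fibroblast markers to at most 2.29 CPM, with Lum at 0. The part of any of these cell types in the values of the set was not tested.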

How the data were processed

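Poly(A) RNA of 6 samples was sequenced as strand-marked paired ends, per the labels' protocols. What was deposited for each gene is an estimated count, given as a whole number, and the submitters' processing notes name fastp, HISAT2, StringTie and edgeR with the builds GRCm39 and GRCh38, without versions or roles. Low values favour multiples of 4 (4613 table entries are 4, 2904 are 3 and 2552 are 5), so what a fragment is worth is uncertain. Symbols for 27005 identifiers and exon lengths came from GENCODE M21, of the build GRCm38.

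Samples were grouped by treatment label. Counts were tested with edgeR 4.0.16 (R 4.3.3): quasi-likelihood F test, robust fit, TMM scaling, default filter by group, two-sided, Benjamini-Hochberg adjustment over 15567 genes, threshold 0.05. SE is that of the log2 fold change. TPM was computed from counts and exon lengths. The script was tested on simulated counts. A floor of 3 counts equals 0.0386 to 0.0523 CPM and covers counting error only, and only if each count stands for a fragment. No pair of replicates agreed within sampling noise, even after division of counts by 4 (2.65 to 10.2 for chi-square over its degrees of freedom).

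The 10 genes and all lists were chosen with earlier results of these data known. Named were these genes, other family genes past the threshold, up to 4 genes of smallest p per list, and the 2 most abundant markers per list with those at 0. Of the set, Sema6d had the highest and Sema4a the lowest log2 fold change, and the 3 genes nearest in pattern to each were named. Trem2, Tyrobp, Flt1, Kdr, Cd72, Itgb1, Timd2, Flt4, Vegfb, Rras, Rap1a, Gm26811, Sema6b, Sema7a, Sema6c and Plxna3 were named after their values were seen. The alternatives were DESeq2 1.42.0, limma-voom (limma 3.58.1), RLE and upper-quartile scaling, a block on replicate number, no filter or one at 5 CPM in 3 libraries, a fit without robust estimation, division of counts by 4, testing for changes above 1.2-fold, and omission of each library.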

Additional observations from a re-analysis of the deposited data

How the results depend on the processing

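Over all genes, higher calls slightly outnumbered lower ones in the main test, at 3319 and 3215. That balance turned with no filter on low counts (3117 higher, 3207 lower). It also turned on omission of any 1 BW723C86 library, as for replicate 2 (3440 higher, 3713 lower). None of the 10 genes' values reversed in direction under the 16 alternative settings. Of 160 values of the 10 genes under these settings, 150 kept their direction and side of the threshold and 10 lost the call: Sema4b in 8 settings, and Sema4d and Plxnb2 in the test against a fold change of 1.2. That test asks for more than a nonzero change, and under it 3208 of all genes (6534 in the main test), 30 pathway genes (49) and 6 of the 10 genes (9) passed. Leaving out 1 library gave 5387 to 7153 genes, 8 to 9 of the 10, 14 to 15 family genes (15) and 38 to 56 pathway genes, and the call on Sema4b was lost without any library except BW723C86 replicate 2. The filter at 5 CPM left 10 family genes past the threshold, because low genes were not tested. With the replicate block 6179 of all genes, 8 of the 10, 14 family genes and 44 pathway genes passed. No pairing by replicate number was visible: deviations from group means correlated at -0.0247 to 0.031 for equal numbers and -0.0312 to 0.0381 for others. With 3 libraries per group this cannot show that the samples were unpaired. The median log2 fold change of all genes lay between -0.01 and 0.028 under the alternatives. In the setting without a pseudocount, chosen after seeing the data, Rbp4 came 3rd, Hr 5th and Flt1 16th in nearness to Sema6d. Depth limits the family genes of few counts, Sema3c and Plxnb1 included, since a fragment may be worth 4 counts.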

Other observations

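Other axon guidance families were mostly too low to test. Of 37 ephrin, Eph receptor, netrin, Unc5, Slit and Robo genes listed, 35 were in the table, 4 had no count in any library and 15 were tested, of which 2 rose, 3 fell and 10 were not past the threshold (over all genes 42.0% were past it), with a median log2 fold change of 0.14 beside 0.004 over all genes. Unc5b, a netrin receptor, fell from 12.7 ± 0.745 to 1.63 ± 0.537 CPM (mean ± SD of 3 libraries, -2.98 on the log2 scale, SE 0.188, edgeR adjusted p = 4.7e-08). Epha2, an ephrin receptor, fell from 1.79 ± 0.346 to 0.398 ± 0.024 CPM (-2.17 on the log2 scale, SE 0.282, edgeR adjusted p = 4.2e-05). Efna5, which encodes an ephrin ligand, had 0, 0 and 9 counts in DMSO libraries and 78, 59 and 68 counts in BW723C86 libraries (edgeR adjusted p = 0.00052). These counts stand for few fragments if a fragment is worth 4 counts. Epha1 rose from 0.389 ± 0.0836 to 0.881 ± 0.286 CPM (1.17 on the log2 scale, SE 0.399, edgeR adjusted p = 0.031).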
